A study of Homo sapiens with 8 samples.

Results

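The miR-106b-25 and miR-106a-363 clusters are the paralogs of the oncogenic miR-17-92 cluster, and their mature products were compared between INA-6 cells after EZH2 inhibition and after control treatment. The members were chosen by name, as the array entries of 9 mature miRNAs (hsa-miR-106b-5p, hsa-miR-106b-3p, hsa-miR-93-5p, hsa-miR-93-3p and hsa-miR-25-3p on chromosome 7, and hsa-miR-106a-5p, hsa-miR-18b-5p, hsa-miR-20b-5p and hsa-miR-363-3p on the X chromosome), and 8 of the 9 were found among the 2549 human miRNAs of the array, 5 from the miR-106b-25 locus and 3 from the miR-106a-363 locus. miR-106a-5p was not analysed here. INA-6 is an established human multiple myeloma (MM) cell line that is grown with interleukin-6, and UNC1999 is an inhibitor of the histone methyltransferase EZH2. The control group was 4 arrays of INA-6 cells given the solvent DMSO, and the treated group was 4 arrays of INA-6 cells given 1 μM of UNC1999, both for 5 days. All samples therefore came from 1 cell line at 1 dose and 1 time, and all arrays lay on 1 slide. The sample titles name DMSO as the control while the protocol text of the labels names UNC2400, an inactive compound, and the samples were taken as DMSO controls.

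A miRNA binds its target mRNAs mainly through its seed, bases 2 to 8 from the 5′ end, so miRNAs with the same seed are expected to share targets. The seeds of the miR-17 and miR-92 families are found in all 3 clusters, that of miR-18 in the clusters that hold miR-18a and miR-18b, and the miR-17 family is known to repress the pro-apoptotic protein BIM. The miR-106b-25 cluster lies within the gene MCM7, which encodes a subunit of the replicative DNA helicase, and the miR-106a-363 cluster lies on the X chromosome in the noncoding gene MIR106AHG and is known for its activation in T cell leukaemia.

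In the RefSeq annotation of GRCh38.p14 the hairpins of the miR-106b-25 locus spanned chr7:100093560-100094074 on the minus strand, inside MCM7. Those of the miR-106a-363 locus spanned chrX:134169378-134170278 on the minus strand, inside MIR106AHG. The members and the miR-17-92 products they were compared with are shown because the comparisons below rest on how little they differ. The seed is in capitals and the sequences are from RefSeq.
miR-106b-5p: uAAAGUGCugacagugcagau
miR-93-5p: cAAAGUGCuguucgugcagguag
miR-106a-5p: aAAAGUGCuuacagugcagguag
miR-20b-5p: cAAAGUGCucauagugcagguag
miR-17-5p: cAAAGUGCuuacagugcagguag
miR-20a-5p: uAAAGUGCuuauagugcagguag
miR-18b-5p: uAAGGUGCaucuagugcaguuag
miR-18a-5p: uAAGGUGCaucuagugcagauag
miR-25-3p: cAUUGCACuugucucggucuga
miR-363-3p: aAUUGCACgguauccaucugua
miR-92a-3p: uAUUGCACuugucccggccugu
miR-106b-3p: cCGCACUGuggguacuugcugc
miR-93-3p: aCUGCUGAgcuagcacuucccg

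The X-linked 5p arms were the closest to products of miR-17-92. miR-18b-5p differed from miR-18a-5p by A20U alone, where the base of the miR-17-92 product comes first and positions count from 1 at the 5′ end. miR-20b-5p differed from miR-20a-5p by U1C and U10C, and from miR-17-5p by U10C and C12U. The chromosome 7 members were further away. miR-106b-5p differed from miR-17-5p by C1U, U10G and G20A and ended 2 bases earlier, miR-93-5p differed from it at 4 positions (U10G, A11U, C12U and A13C), and miR-25-3p differed from miR-92a-3p at 4 positions (U1C, C14U, C18U and U22A). miR-363-3p shared the seed of miR-92a-3p but differed from it at 12 of 22 positions. RefSeq places miR-19b-3p and miR-92a-3p at 2 loci each, in miR-17-92 and in miR-106a-363, so an array signal of either cannot be assigned to one cluster.

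On each array every miRNA is read by 2 to 4 probes on 20 spots in all. The summed probe intensities were scaled to the 75th percentile of the array, taken among the 346 miRNAs that all 8 arrays detected, so a log2 scaled signal is relative to the other miRNAs of that array. Since probes differ in brightness, levels of different miRNAs were not compared, and in ratios of 2 miRNAs the change alone was read. The scanner software detected between 369 and 500 human miRNAs per array. Within each group the arrays resembled each other in pairs, DMSO replicates 1 and 4 (Pearson r of the log2 signals 0.998), DMSO 2 and 3 (r = 0.996), UNC1999 1 and 3 (r = 0.998) and UNC1999 2 and 4 (r = 0.997), against 0.985 to 0.992 for the other arrays of the same group. The labels call the arrays biological replicates, whether alike arrays came from separate cultures was not tested, and the calls are also given with alike arrays averaged. Of 5 marker miRNAs of blood cells, miR-142-3p, miR-142-5p, miR-150-5p and miR-181a-5p were detected on all 8 arrays and miR-155-5p on 2. Of the 4 tested, miR-142-3p, miR-142-5p and miR-150-5p were called lower, at -0.52, -0.36 and -0.56 on the log2 scale, and miR-181a-5p was at -0.22 and not called (limma adjusted p = 0.00908, 0.0144, 0.00105 and 0.112). Of 13 markers of other cell types, 11 were detected on no array, while the neuronal miR-9-5p and the myeloid miR-223-3p were detected on all 8. After UNC1999 treatment miR-9-5p fell by 0.88 and miR-223-3p rose by 1.18 on the log2 scale (limma adjusted p = 0.00523 and 5.7e-04), and their part in the results below was not tested.

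Which arms of the 2 loci did INA-6 cells show? From the miR-106b-25 locus, miR-106b-5p, miR-93-5p and miR-25-3p were detected on all 8 arrays. These are the guide arms, the strands usually loaded into the silencing complex. The opposite arms were at the background. miR-106b-3p was detected on 0 of 8 arrays, with summed intensities from -0.74 to 4.67 before scaling, and miR-25-5p, outside the 9 members, on 0 of 8. miR-93-3p was detected on DMSO replicate 4 and UNC1999 replicate 2 alone. Its summed intensities were 12.5, 13.3, 4.97 and 13.7 on the DMSO arrays and 7.41, 19.2, 6.92 and 11.6 on the UNC1999 arrays, in the order of the replicates. The groups overlapped, and miR-93-3p and miR-106b-3p were not among the 456 miRNAs tested, for which detection on every array of one treatment group or the other was required.

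From the miR-106a-363 locus, miR-18b-5p and miR-20b-5p were detected on all 8 arrays, and these were the X-linked members closest in sequence to miR-17-92 products among those read. miR-363-3p, the member with a sequence of its own, was detected on 0 of 8 arrays. Its summed intensities before scaling were 0.98, 0.85, -0.96 and -0.93 on the DMSO arrays and 4.98, 10.5, 3.56 and 5.01 on the UNC1999 arrays. The UNC1999 arrays were the higher in all 4 cases but not well above background, so no fold is given. The 6 further products of this locus on the array (miR-106a-3p, miR-18b-3p, miR-19b-2-5p, miR-20b-3p, miR-92a-2-5p and miR-363-5p) were each detected on 0 of 8 arrays. Their highest summed intensity was 26.9, that of miR-18b-3p in DMSO replicate 1. How much signal the probes for miR-18b-5p and miR-20b-5p take from miR-18a-5p, miR-20a-5p or miR-17-5p was not tested.

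**Figure D1:**
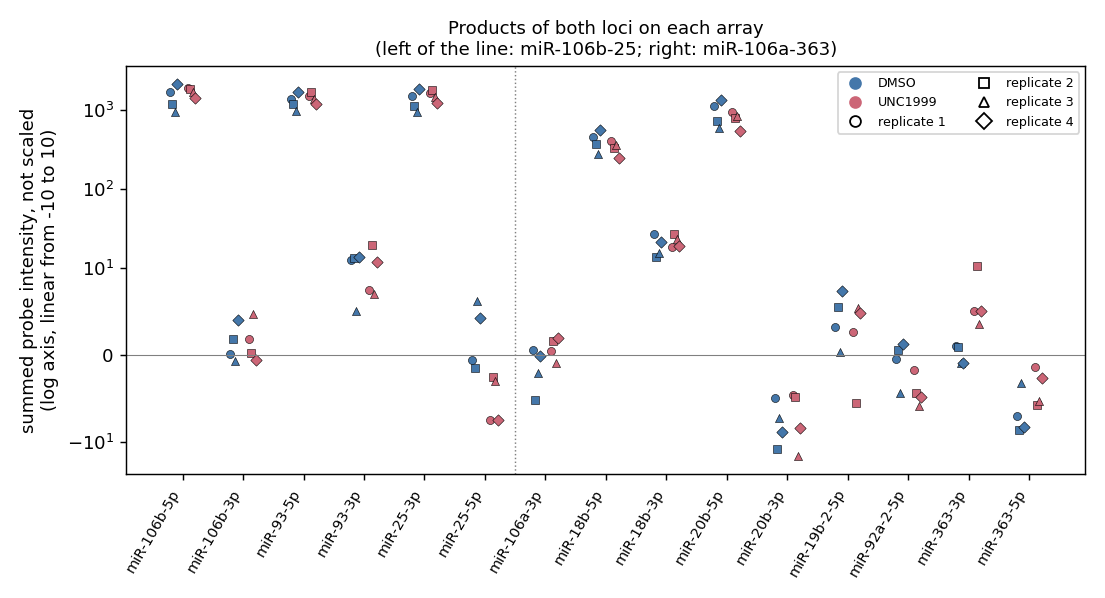
Summed probe intensity before scaling (y axis, logarithmic above 10 and linear from -10 to 10) of 15 products of the 2 loci (x axis) on each of the 4 DMSO arrays (blue) and 4 UNC1999 arrays (red), with a marker shape per replicate. The 5 miRNAs detected on all 8 arrays lie above 200 on every array, and the other 10 lie below 27, miR-93-3p among them with detection on 2 arrays.

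All 5 detected members were lower after EZH2 inhibition, and those of the X-linked locus changed the most. miR-18b-5p and miR-20b-5p were at 50.6% and 52.2% of their signal in DMSO-treated cells. miR-106b-5p, miR-93-5p and miR-25-3p were at 74.2%, 68.5% and 71.5%. All 5 were called lower (limma's moderated test, with a Benjamini-Hochberg adjusted p up to 0.05 and a minimum fold change of 1.2), where 34.6% of the 456 miRNAs tested were called lower and 70.6% were called in either direction. In each of the 5 the groups did not overlap, as in 65.4% of all miRNAs tested (32.7% with the UNC1999 arrays lower). The median log2 fold change was -0.48 over the 3 tested members of miR-106b-25 and -0.96 over the 2 tested members of miR-106a-363, against 0.01 over all 456 miRNAs. Among the 346 miRNAs detected on all 8 arrays, as all 5 members were, the median was -0.14. A fit to these 346 alone called 139 lower and 109 higher. In bulk RNA a lower signal in every cell and fewer cells that carry the miRNA cannot be told apart. The members that were not tested are those described above as at or near background.

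miR-106b-5p, the first miRNA of its cluster and a member of the miR-17 family, had log2 scaled signals of 10.88, 10.80, 10.71 and 10.96 on the DMSO arrays and of 10.50, 10.42, 10.26 and 10.44 on the UNC1999 arrays. Every UNC1999 array was below every DMSO array, and replicate 3 was the lowest of each group. The log2 fold change of -0.43 had a standard error of 0.10 (limma adjusted p = 0.00365). Its 2 probes changed by -0.45 and -0.39 on the log2 scale. Within the array rows of the slide, 3 DMSO arrays and 1 UNC1999 array in row 1 and the reverse in row 2, the difference was -0.44 and -0.32.

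miR-93-5p, the second miR-17 family member of the cluster, read 10.58, 10.79, 10.73 and 10.64 on the DMSO arrays and 10.16, 10.27, 9.95 and 10.17 on the UNC1999 arrays. The groups did not overlap, the highest UNC1999 array, replicate 2, lying below the lowest DMSO array, replicate 1. The log2 fold change of -0.55 had a standard error of 0.10 (limma adjusted p = 0.00138), and its 2 probes changed by -0.54 and -0.57. Within rows 1 and 2 of the slide the difference was -0.50 and -0.60.

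miR-25-3p, which carries the miR-92 family seed, read 10.69, 10.73, 10.69 and 10.74 on the DMSO arrays and 10.27, 10.39, 10.04 and 10.21 on the UNC1999 arrays. The DMSO arrays lay close together (SD 0.03, n = 4) and the UNC1999 arrays, all lower, were more spread (SD 0.14, n = 4). The log2 fold change of -0.48 had a standard error of 0.10 (limma adjusted p = 0.00212), with changes of -0.47 and -0.55 for its 2 probes. Within rows 1 and 2 the difference was -0.51 and -0.45.

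miR-18b-5p, the X-linked copy of miR-18a-5p, read 8.98, 9.10, 8.95 and 9.01 on the DMSO arrays and 8.25, 7.94, 8.02 and 7.91 on the UNC1999 arrays. The groups stood well apart, with UNC1999 replicate 1 the highest of the treated arrays. The log2 fold change was -0.98 with a standard error of 0.10 (limma adjusted p = 1.0e-04). Of its 3 probes, 1 fell by 0.92 and 1 fell by 0.99, and the third stayed between -0.96 and 3.42 in intensity before scaling, at background on every array. Within rows 1 and 2 the difference was -1.12 and -0.88.

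miR-20b-5p, the X-linked copy of miR-20a-5p in the miR-17 family, read 10.27, 10.10, 10.03 and 10.27 on the DMSO arrays and 9.49, 9.18, 9.21 and 9.04 on the UNC1999 arrays. Again every UNC1999 array was lower and replicate 1 was the least so. The log2 fold change was -0.94 with a standard error of 0.12 (limma adjusted p = 2.1e-04), and its probes changed by -0.94 and -0.92. Within row 1 the difference was -1.18 and within row 2 it was -0.73. For each of the 5 members the exact permutation test of the 8 arrays gave p = 0.029 (two-sided), the smallest that 4 arrays against 4 allow. The permutation tests here and below count the 8 arrays as independent, which was not tested for the alike arrays.

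**Figure D2:**
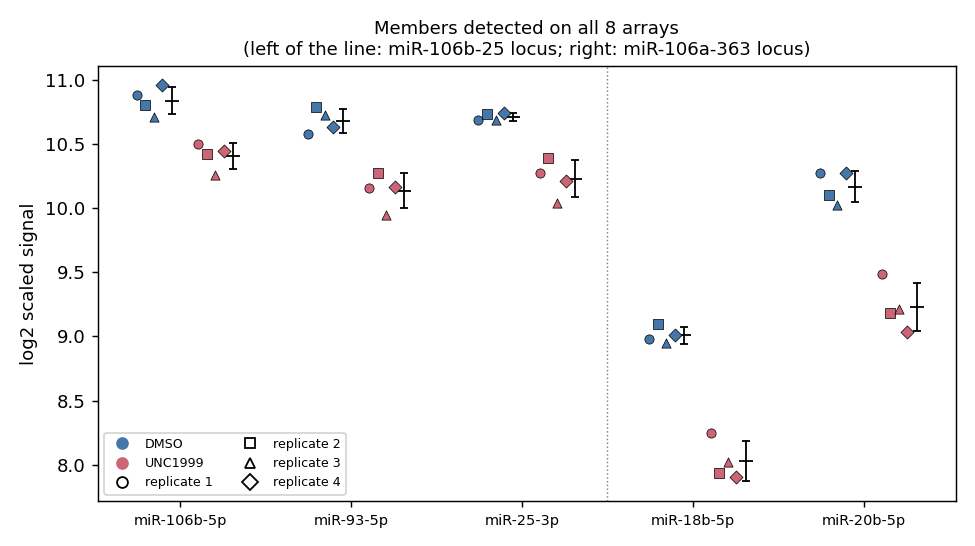
Log2 scaled signal (y axis) of the 5 members detected on all 8 arrays (x axis) on the DMSO arrays (blue) and UNC1999 arrays (red), with a marker shape per replicate and the mean ± SD (n = 4) beside each group. In all 5 the UNC1999 arrays lie below the DMSO arrays, by 0.43 to 0.55 on average left of the line and by 0.94 and 0.98 right of it.

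The direction of the chromosome 7 members, and the size of the fall of the X-linked members, depended on how arrays were scaled. Before scaling, the 75th percentile of the detected miRNAs averaged 419 with DMSO (SD 119, n = 4) and 664 with UNC1999 (SD 88.3, n = 4). Without scaling, miR-106b-5p, miR-93-5p and miR-25-3p were at 0.27, 0.15 and 0.21 on the log2 scale, higher after UNC1999 treatment and not called (limma adjusted p = 0.446, 0.674 and 0.541), while miR-18b-5p and miR-20b-5p were at -0.28 and -0.24, also not called (limma adjusted p = 0.415 and 0.516). The median of all miRNAs tested was then 0.67, with 234 called higher and 4 lower in place of 164 higher and 158 lower. Scaling to the spike-in RNAs added at labelling gave 0.39, 0.28 and 0.34 for the chromosome 7 members and -0.16 and -0.11 for the X-linked members, with none of the 5 called and a median of 0.79. Relative to the median of all miRNAs tested, which takes out a factor common to an array by construction, miR-106b-5p ranged over the 7 scalings from -0.44 to -0.39, miR-93-5p from -0.60 to -0.51 and miR-25-3p from -0.49 to -0.45. miR-18b-5p ranged from -1.10 to -0.95 and miR-20b-5p from -1.01 to -0.90. The distance also depended on which miRNAs formed the median. Against those detected on all 8 arrays, miR-106b-5p, miR-93-5p and miR-25-3p were at -0.29, -0.41 and -0.35. miR-18b-5p and miR-20b-5p were then at -0.84 and -0.80. In the processed values of the authors, the chromosome 7 members were at -0.25, -0.38 and -0.29 against every feature. Against the miRNAs tested they were at -0.52, -0.65 and -0.57 in the same values. Normexp background correction was used with an offset of 50. With it the median of all miRNAs tested was -0.29 (230 called lower and 54 higher). Relative to that median, miR-106b-5p was at 0.06, miR-93-5p at -0.05 and miR-25-3p at 0.02, and miR-18b-5p and miR-20b-5p at -0.37 and -0.39. The falls of all 5 members are therefore relative to the other miRNAs of the array. With normexp, the chromosome 7 members lay within 0.06 of the median miRNA, and the part of the offset in that median was not tested. With alike arrays averaged, leaving 2 values a group, the chromosome 7 members lost their calls (limma adjusted p = 0.096, 0.055 and 0.071 for miR-106b-5p, miR-93-5p and miR-25-3p) and the X-linked members kept theirs.

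**Figure D3:**
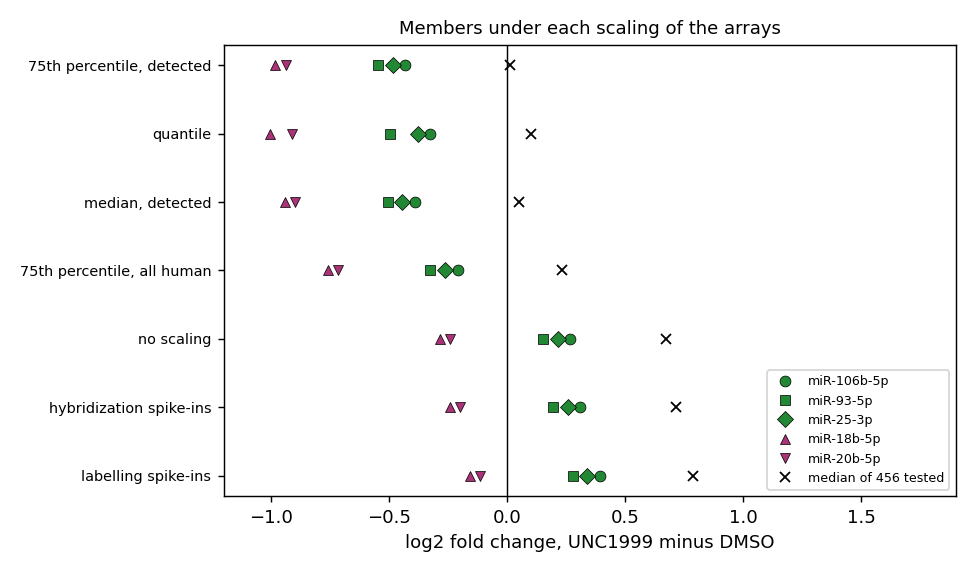
Log2 fold change, UNC1999 minus DMSO (x axis), of the 5 members and the median of the 456 miRNAs tested (crosses) under 7 scalings of the arrays (y axis), chromosome 7 members in green and X-linked members in purple. From the top row to the bottom row miR-106b-5p moves from -0.43 to 0.39 and the median from 0.01 to 0.79. The X-linked members stay below the chromosome 7 members. A single factor per array cannot change that order, so among these scalings quantile normalization alone could have altered it.

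Did the same-seed miRNAs of the 2 loci change alike? A ratio of 2 miRNAs within an array does not depend on a scaling factor, and 11 of 18 pairs could be compared because both miRNAs were among the 456. The log2 ratio of miR-20b-5p to miR-106b-5p was -0.61, -0.70, -0.68 and -0.68 on the DMSO arrays and -1.01, -1.24, -1.05 and -1.41 on the UNC1999 arrays. The X-linked member was lower against its chromosome 7 counterpart on every UNC1999 array than on any DMSO array. The ratio changed by -0.51, with shifts from -0.795 to -0.315 not rejected at 0.05 (exact permutation test, two-sided, p = 0.029, adjusted over the 11 pairs p = 0.079). The smallest p this test can give is 0.029, and after adjustment none of the 11 pairs was below 0.05, with 4 at 0.079 and the other 7 from 0.126 to 0.629.

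The log2 ratio of miR-20b-5p to miR-93-5p was -0.31, -0.69, -0.70 and -0.36 on the DMSO arrays and -0.67, -1.09, -0.74 and -1.13 on the UNC1999 arrays. Here the groups overlapped, UNC1999 replicate 1 lying above DMSO replicates 2 and 3. The change was -0.39, with shifts from -0.82 to 0.025 not rejected (exact permutation test, two-sided, p = 0.086, adjusted p = 0.16). The alike arrays had similar ratios, DMSO 1 with 4 and 2 with 3, and UNC1999 1 with 3 and 2 with 4. Between the alike arrays on each side of the second principal component, which holds 15.0% of the variance, the change was -0.42 and -0.37 for this ratio and -0.63 and -0.38 for that of miR-20b-5p to miR-106b-5p. Within rows 1 and 2 of the slide the change was -0.68 and -0.13 for the ratio to miR-93-5p and -0.74 and -0.42 for that to miR-106b-5p. Pairs of miR-106a-5p or miR-363-3p could not be compared.

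Averaged over the detected members of a locus, the X-linked mean minus the chromosome 7 mean was -1.09, -1.18, -1.22 and -1.13 on the DMSO arrays and -1.44, -1.80, -1.47 and -1.80 on the UNC1999 arrays. The gap was wider on each UNC1999 array than on any DMSO array, by 0.47 on average. No test was made of this average, since the members were chosen with results known. The members and pairs tested above were chosen in the same way, so their p-values carry that limit too.

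The members of both loci were also set against miR-17-92 itself. The ratios of the X-linked members to their close counterparts were nearly level over the arrays. How much signal the probes of miR-18b-5p and miR-20b-5p take from these counterparts was not tested. The log2 ratio of miR-18b-5p to miR-18a-5p lay between -1.21 and -1.12 on all 8 arrays and changed by -0.02, with shifts from -0.065 to 0.055 not rejected (exact permutation test, two-sided, p = 0.40). That of miR-20b-5p to miR-17-5p lay between -2.72 and -2.60 and changed by -0.02 (shifts from -0.11 to 0.095, exact permutation test, two-sided, p = 0.63). The log2 ratio of miR-20b-5p to miR-20a-5p lay between -3.05 and -2.87 and changed by -0.06 (shifts from -0.175 to 0.055, exact permutation test, two-sided, p = 0.20). As a description, the range over the 8 arrays was 0.09, 0.12 and 0.18 for these ratios, against a median range of 1.11 over the 59685 pairs of the 346 miRNAs detected on all 8 arrays. The change was larger where each array was reshaped rather than scaled by a factor, at -0.15 and -0.29 for the ratios of miR-20b-5p to miR-17-5p and miR-20a-5p with quantile normalization, and at -0.26 and -0.23 in the processed values of the authors. The ratio of miR-18b-5p to miR-18a-5p changed by 0.27 with the mean of log2 probe values, which gives the background probe of miR-18b-5p the same weight as the others.

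The ratios of the chromosome 7 members of the miR-17 family to their miR-17-92 counterparts were higher on average after UNC1999 treatment, and none passed after adjustment. The log2 ratio of miR-106b-5p to miR-17-5p was -1.99, -2.02, -2.01 and -1.96 on the DMSO arrays and -1.61, -1.47, -1.67 and -1.29 on the UNC1999 arrays. The groups did not overlap, and the ratio changed by 0.49, with shifts from 0.30 to 0.73 not rejected (exact permutation test, two-sided, p = 0.029, adjusted p = 0.079). The ratio of miR-106b-5p to miR-20a-5p changed by 0.45 and that of miR-93-5p to miR-17-5p by 0.37, with the same p and adjusted p and no overlap of the groups. In the processed values of the authors the changes against miR-17-5p were 0.27 for miR-106b-5p and 0.14 for miR-93-5p (for the latter exact permutation test, two-sided, p = 0.31). The ratio of miR-93-5p to miR-20a-5p changed by 0.34 with overlapping groups (exact permutation test, two-sided, p = 0.17). Within rows 1 and 2 of the slide, the ratio of miR-106b-5p changed by 0.71 and 0.43 against miR-17-5p and by 0.71 and 0.29 against miR-20a-5p, and that of miR-93-5p by 0.64 and 0.14 against miR-17-5p and by 0.64 and 0.01 against miR-20a-5p. In all, 4 of the 11 ratios had groups that did not overlap, where 59.3% of all 59685 pairs had. The 11 ratios share miRNAs with each other, so they are not independent results.

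miR-25-3p and miR-92a-3p, which share a seed, differed less. Their log2 ratio was 0.26, 0.05, 0.03 and 0.38 on the DMSO arrays and 0.46, 0.42, 0.42 and 0.27 on the UNC1999 arrays. Only UNC1999 replicate 4 lay within the range of the DMSO arrays. The change was 0.21, with shifts from -0.105 to 0.425 not rejected (exact permutation test, two-sided, p = 0.057). Within row 1 of the slide it was 0.04 and within row 2 it was 0.40.

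Within the miR-106b-25 cluster, the log2 ratio of miR-106b-5p to miR-93-5p was 0.30, 0.01, -0.02 and 0.32 on the DMSO arrays and 0.34, 0.15, 0.31 and 0.28 on the UNC1999 arrays. DMSO replicates 2 and 3, an alike pair, stood near 0, and the other arrays stood higher. The change with treatment was 0.12, with shifts from -0.17 to 0.355 not rejected (exact permutation test, two-sided, p = 0.31). The spread between the DMSO arrays was larger than that change.

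**Figure D4:**
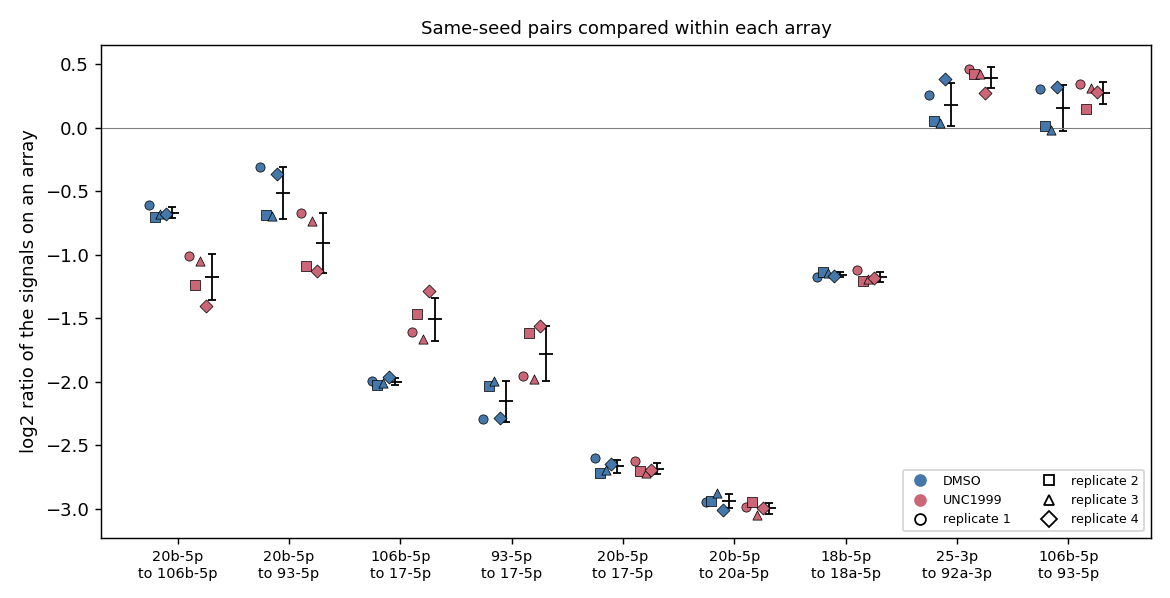
Log2 ratio of the signals of 2 same-seed miRNAs on an array (y axis) for 9 of the 11 pairs (x axis), DMSO arrays in blue and UNC1999 arrays in red, with a marker shape per replicate and the mean ± SD (n = 4) beside each group. The ratios of miR-20b-5p to miR-17-5p and of miR-18b-5p to miR-18a-5p span 0.12 and 0.09 over all 8 arrays, while that of miR-20b-5p to miR-106b-5p is 0.51 lower on the UNC1999 arrays.

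Of the 12 mature miRNAs of miR-17-92, 8 were tested and all 8 were called lower, with a median log2 fold change of -0.96. The 2 X-linked members, at -0.98 and -0.94, lay within the range of these 8, of which miR-17-3p, the opposite arm of miR-17-5p, fell most at -1.05 and miR-92a-3p least at -0.70. The 3 chromosome 7 members, from -0.55 to -0.43, lay outside it. The 8 include miR-19b-3p at -0.98 and miR-92a-3p, whose sequences RefSeq places in miR-17-92 and in miR-106a-363. For the 2 X-linked members, signal taken by their probes from close miR-17-92 products was not tested. Ordered by log2 fold change among the 456, miR-18b-5p stood at place 23 and miR-20b-5p at place 29 from the strongest fall, with all 3 tested chromosome 7 members after them. Differences between members of the same locus were of the size of their standard errors. miRNAs of the same seeds from other loci could not be compared, since miR-92b-3p, miR-519d-3p and miR-526b-3p were detected on 0 of 8 arrays and miR-32-5p on 4.

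**Figure D5:**
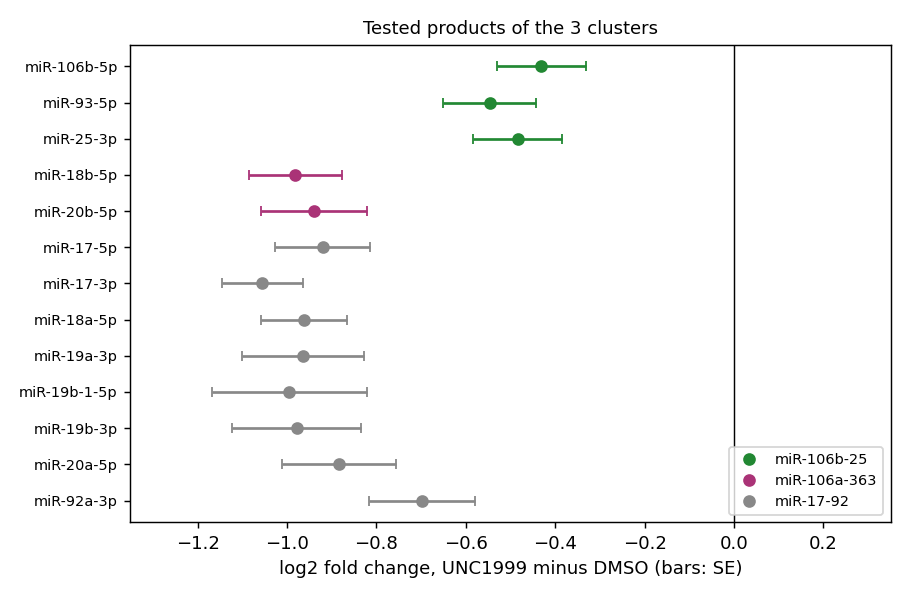
Log2 fold change, UNC1999 minus DMSO, with its standard error (x axis), of the 13 tested products of the 3 clusters (y axis), from limma. The X-linked members at -0.98 and -0.94 lie among the miR-17-92 products, and the chromosome 7 members lie between -0.55 and -0.43.

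Over the 8 arrays, which fall into the 2 treatment groups, the miRNAs outside these clusters with the pattern most like the mean of the chromosome 7 members were miR-550a-3p, miR-331-3p and miR-378a-3p (Pearson r = 0.979, 0.977 and 0.974 of 333 miRNAs compared). Their log2 fold changes were -0.82, -0.61 and -0.65. Those most like the X-linked mean were miR-374b-5p, miR-103a-3p and miR-3651 (r = 0.996, 0.991 and 0.991), with log2 fold changes of -0.81, -0.74 and -0.84. All 6 were called lower, and these correlations are a description that the difference between the treatment groups enters.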

How the data were processed

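The authors deposited the scanner output of 8 single-colour SurePrint G3 human miRNA arrays, made with Agilent Feature Extraction 10.7.3.1 per the file headers, in which each spot has a background-corrected intensity that has not been normalized. They also deposited a table of quantile-normalized log2 values, which were used as an alternative. Total RNA was extracted with TRIzol. Array intensities have no read depth, and the number of arrays is among the limits on the precision. The scanner's sum per miRNA, on UNC1999 replicate 2 with an effective feature size fraction of 0.806 against 0.6 on the others, was used as an alternative alone.

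Spot intensities were averaged per probe without outlier spots, probes were summed per miRNA, arrays were scaled to the geometric mean of their 75th percentiles among the 346 miRNAs that all 8 detected, and a floor of 8.98 (the lowest scaled signal with a detection call, as its median across arrays) was set before taking log2. limma 3.58.1 (R 4.3.3, lmFit and eBayes, no block) was fitted to the 456 miRNAs with detection on every array of one group or the other. Calls needed a fold change of 1.2 or more and an adjusted p (Benjamini-Hochberg) of 0.05 or less. The study's methods name a moderated test with that fold change. Ratios within an array were tested with exact permutation tests over the 8 arrays (Python 3.11.15), adjusted over the 11 pairs, and the shifts not rejected were found on a grid of 0.005. In a simulation of DMSO against UNC1999, 200 of 456 miRNAs were changed. Of changes of 0.5 and of 1 on the log2 scale, 72% and 97% were found, and 2.87% of the calls were false. The simulated arrays were independent of each other, without the alike pairs seen in the data, so these shares need not hold for the real arrays.

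The members, lists and tests were chosen with earlier results of these data known. The miRNAs named are all members, all miR-17-92 products, the other products of the 2 loci, same-seed miRNAs elsewhere, and the 3 miRNAs closest in pattern to each locus. Of 32 names of these, 31 matched the RefSeq miRNA table (GRCh38.p14), whose coordinates are not those of the scanner files, which name hg19. The alternatives are the scanner's sum, the mean of log2 probe values, normexp with an offset of 50, other scalings, floors and filters, the authors' values, another variance model, blocks for the replicate number, array row and alike arrays, alike arrays averaged, other thresholds, and leaving out each array.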

Additional observations from a re-analysis of the deposited data

Results flagged for a closer look

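In 34 groups of 4 values (the 5 members, the 11 ratios and the gap between the loci, in each treatment group), the distance from the most extreme array to its neighbour, as a share of the range, exceeded Dixon's critical value in 0 groups, where chance gives 1.7.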

How the results depend on the processing

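All 5 members were also called lower with quantile or median scaling, the scanner's sum, the mean of log2 probe values, another floor, filter or variance model, the authors' values, the array row or the alike arrays as a block, either other threshold, and with any 1 array left out. Of miR-106b-25 members, 0 were called lower with the 75th percentile of every human miRNA on the array, without scaling, with either kind of spike-in and with alike arrays averaged, where 3 were otherwise, and 2 with normexp. Of miR-106a-363 members, 0 in place of 2 were called without scaling and with either spike-in. The cause was not tested. The log2 fold changes of miR-106b-5p, miR-93-5p and miR-25-3p turned to 0.27, 0.15 and 0.21 without scaling, 0.39, 0.28 and 0.34 with labelling spike-ins and 0.31, 0.19 and 0.26 with hybridization spike-ins. They were -0.21, -0.33 and -0.26, not called, with that percentile, and -0.43, -0.55 and -0.48, not called, with alike arrays averaged. With normexp miR-106b-5p was at -0.23, under the 1.2-fold threshold, and miR-93-5p and miR-25-3p at -0.34 and -0.28, called, where the median of all miRNAs was -0.29. miR-18b-5p and miR-20b-5p were at -0.28 and -0.24 without scaling, -0.16 and -0.11 with labelling and -0.24 and -0.20 with hybridization spike-ins, not called.

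Over all miRNAs 322 were called, against 195 with no filter on detection, 206 with every feature of the authors' values and 156 with alike arrays averaged, and 296 to 326 with 1 array left out. The change of the ratio of miR-20b-5p to miR-106b-5p ran from -0.59 to -0.43 over the alternatives, that to miR-93-5p from -0.47 to -0.32 and that of the locus means from -0.56 to -0.32. A pair that misses the threshold in every setting says nothing about stability.

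Arrays of the same replicate number did not deviate together (correlations of 0.18, 0.27, -0.42 and -0.39 for numbers 1 to 4, and 1 of 4 DMSO arrays closest to its own number). With the replicate number as a block, 308 miRNAs were called, among them all 5 members, and the log2 fold changes of the members were unchanged by construction, miR-106b-5p at -0.43 and miR-20b-5p at -0.94. In that pairing the smallest exact permutation p for a ratio is 0.125.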
